A study of Mus musculus with 14 samples.

Results

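Messenger RNA levels of 9 genes that bring glucose into islet cells and couple its breakdown to insulin release were compared in 14 arrays of mouse pancreatic islets. The genes are Slc2a2, Slc2a1, G6pc2, Pfkm, Pcx, Gpd2, Me1, Glud1 and Hadh. Each was taken as the row of the value table that names it in the array's gene annotation, and for Me1, which has several rows, the row with the highest mean was kept. All 9 were found, each on a transcript cluster (the array's probe set for a gene) that names that gene alone, among 19938 genes tested. The mice were 11 weeks old, of mixed C57BL/6 and NMRI stock, and untreated. They formed 3 groups. Control mice gave 5 arrays, and the labels name no alleles for them. Pdx-1+/- mice gave 4 arrays. They carry the driver allele Pdx-1-tTA, which leaves them haploinsufficient for the β-cell transcription factor Pdx1. The IKK2-CApdx-1 mice (IKK2-CA in what follows) were diabetic and gave 5 arrays. In them the same driver makes a constitutively active form of IKK2, an activating kinase of the NF-κB pathway, in β-cells. A difference of IKK2-CA from control islets therefore holds the driver allele, active IKK2 and diabetes together, and a difference from Pdx-1+/- islets holds active IKK2 and diabetes, which cannot be told apart.

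The β-cell reads blood glucose by metabolising it. Glucose enters through a facilitative transporter, is phosphorylated and runs through glycolysis to pyruvate. Pyruvate is oxidised or carboxylated in mitochondria, redox shuttles carry the electrons of cytosolic NADH across the inner membrane, and the resulting ATP closes potassium channels so that calcium enters and insulin granules fuse. Amino acid and fatty acid oxidation feed the same route, and inherited gain of glutamate dehydrogenase or loss of the enzyme encoded by Hadh causes insulin release that is too high.

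Values are log2 signals, so a difference of −1 is a halving, and they compare arrays for the same gene and not genes with each other. The islet hormone genes were near the top of the scale on all arrays, with Ins2 between 12.31 and 12.68. Most acinar transcripts were near the top of the scale on all 14 arrays too (Cpa1 between 13.61 and 13.71). The mean over 10 acinar markers deviated by −0.24 to 0.18, but values near the top may hide differences in acinar content. The acinar marker Rbpjl, which lay lower on the scale, ran from 6.88 on IKK2-CA array 5 to 9.42 on Pdx-1+/- array 4. The part of acinar RNA in the results was not tested. A set of 3 arrays stood apart in adipocyte or intestinal transcripts. On IKK2-CA array 5 the mean over 7 adipocyte markers lay 2.54 above the mean of the 14 arrays, against −0.64 to 0.48 on the other arrays. On Pdx-1+/- array 4 and control array 3 the mean over 9 intestinal markers lay 2.78 and 1.31 above it, against −0.54 to −0.20 elsewhere. The 14 β-cell markers used here (among them Pdx1, Mafa, Ucn3, Glp1r and Sytl4) lay between 0.11 and 0.89 in control, between −0.51 and 0.05 in Pdx-1+/- and between −0.95 and 0.09 in IKK2-CA islets, so every control array was above every other array. The list holds Pdx1, the gene that the driver allele of both other groups affects, and was chosen with earlier results of these data known. Whole islets were measured, and fewer β-cells and less RNA per β-cell cannot be told apart. Nothing in the labels says that each array came from its own mouse, so p-values measure only how these samples vary, which may be technical. Immune transcripts varied too. The mean over 7 myeloid markers was 0.93 on IKK2-CA array 5, −0.23 to 0.27 on the other IKK2-CA arrays and −0.49 to 0.07 in the other groups. The mean over 7 T cell markers was 0.99 on IKK2-CA array 5, −0.31 to 0.76 on the other IKK2-CA arrays and −0.38 to 0.08 in the other groups. Of these 14 immune markers 1 passed in IKK2-CA against control: Itgax, the integrin subunit CD11c of dendritic cells and macrophages, rose by 2.16 (SE 0.31, adjusted p = 0.00395). Itgax passed in IKK2-CA against Pdx-1+/- islets as well, where it rose by 2.21 (SE 0.33, adjusted p = 0.0224). Its part in the results was not tested.

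Slc2a2, G6pc2 and Pfkm fell when IKK2-CA islets were compared with control, by 3.79-fold, 2.23-fold and 1.36-fold. They were 3 of the 9 genes past an adjusted p of 0.05 (limma, Benjamini-Hochberg over all genes), and 0 of them rose, where 1.56% of all genes fell, 0.682% rose and 2.25% changed in either direction. Their arrays also did not overlap between these groups, which held for 2.34% of all genes in that direction. The median difference of the 9 genes was −0.45, against −0.012 over all genes. In Pdx-1+/- islets against control 0 of the 9 passed, where 0.0953% of all genes did and each of those fell. The unadjusted p was under 0.05 for 3 of them (Slc2a2, G6pc2 and Gpd2), where it was for 4.71% of all genes, and their median difference was −0.23, against −0.005. In IKK2-CA against Pdx-1+/- islets 0 of the 9 passed, where 0.0752% of all genes did and each of those rose. The unadjusted p was under 0.05 for 2 of them (Slc2a1 and Pfkm), where it was for 7.02% of all genes, and their median was −0.12, against −0.015. The 3 comparisons share groups of arrays, so their values stand side by side and are not independent.

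**Figure D1:**
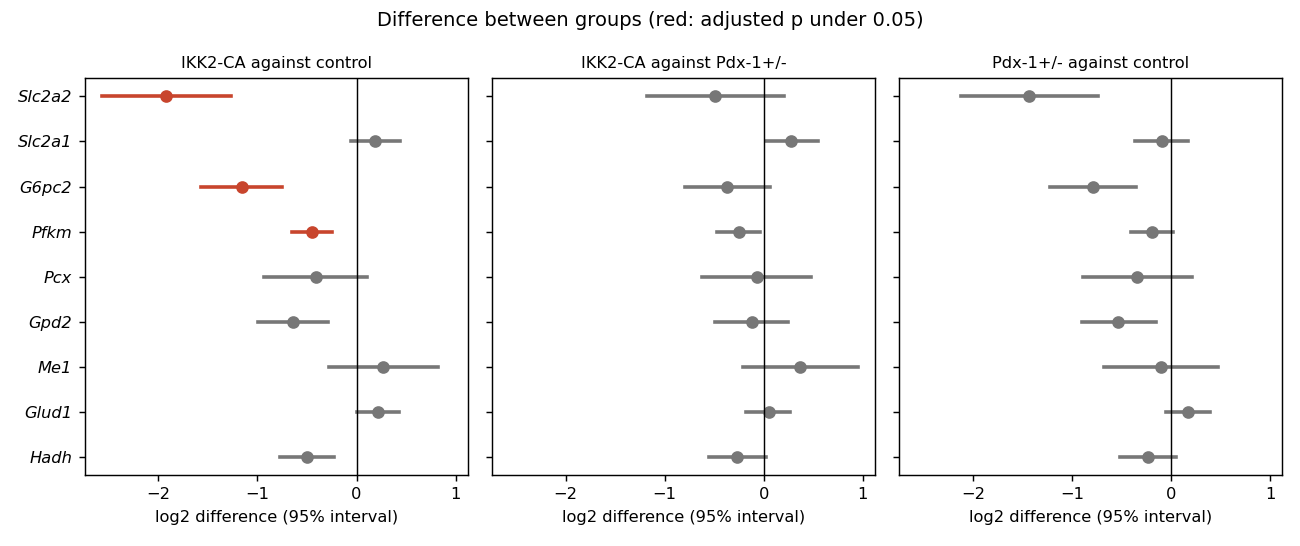
Log2 difference of each of the 9 genes (vertical axis) in the 3 comparisons, with the 95% interval of the limma fit as a line; red marks an adjusted p under 0.05. Slc2a2 lay at −1.92, −0.49 and −1.43 from left to right, while the intervals of Me1 and Pcx held 0 in every panel.

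Slc2a2 encodes GLUT2, the low-affinity glucose transporter of rodent β-cells. The gene (transcript cluster 10491171; GRCm38.p6 chromosome 3, 28697903 to 28728361) read 10.30, 9.90, 11.28, 10.99 and 11.17 on control arrays 1 to 5. It read 9.37, 9.08, 9.52 and 9.23 on Pdx-1+/- arrays 1 to 4, and 8.88, 8.76, 8.78, 9.73 and 7.89 on IKK2-CA arrays 1 to 5. All arrays of the other groups were below the lowest control array, and IKK2-CA array 4 was above all 4 Pdx-1+/- arrays. The group means were 10.73 ± 0.60 (SD, n = 5) in control, 9.30 ± 0.19 (SD, n = 4) in Pdx-1+/- and 8.81 ± 0.65 (SD, n = 5) in IKK2-CA islets. The fall in IKK2-CA against control was −1.92 (SE 0.30, 95% interval −2.57 to −1.27, adjusted p = 0.00694). Pdx-1+/- islets stood at −1.43 against control (SE 0.32, 95% interval −2.12 to −0.74, adjusted p = 0.188), a 2.69-fold lower mean that did not pass over all genes. Without control array 2, the lowest control array, it was −1.64 and passed (adjusted p = 0.0472). That was the only 1 of 9 single omissions that passed, and the adjusted p reached 0.565 in the others. IKK2-CA and Pdx-1+/- islets did not differ past the threshold (−0.49, SE 0.32, 95% interval −1.18 to 0.20, adjusted p = 0.872).

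Promoter letters are shown for Slc2a2 and G6pc2, the genes with the largest falls, and for Slc2a1, the other glucose transporter of the set, which did not fall. They are the 250 bases before each RefSeq start, 5′ to 3′ on the gene's strand, from GRCm38.p6. Capitals mark TAAT on either strand, the core that homeodomain factors such as Pdx1 bind.
Slc2a2, chr3:28697653-28697902, plus strand: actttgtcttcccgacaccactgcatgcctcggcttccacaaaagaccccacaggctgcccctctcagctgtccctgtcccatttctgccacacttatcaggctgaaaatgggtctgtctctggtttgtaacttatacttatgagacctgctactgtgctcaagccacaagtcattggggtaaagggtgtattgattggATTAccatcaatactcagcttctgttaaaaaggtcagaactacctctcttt
Slc2a1, chr4:119108495-119108744, plus strand: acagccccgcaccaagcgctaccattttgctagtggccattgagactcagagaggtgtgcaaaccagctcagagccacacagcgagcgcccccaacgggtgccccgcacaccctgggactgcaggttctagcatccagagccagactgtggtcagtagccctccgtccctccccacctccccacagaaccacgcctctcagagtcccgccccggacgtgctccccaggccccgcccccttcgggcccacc
G6pc2 first start, chr2:69210823-69211072, plus strand: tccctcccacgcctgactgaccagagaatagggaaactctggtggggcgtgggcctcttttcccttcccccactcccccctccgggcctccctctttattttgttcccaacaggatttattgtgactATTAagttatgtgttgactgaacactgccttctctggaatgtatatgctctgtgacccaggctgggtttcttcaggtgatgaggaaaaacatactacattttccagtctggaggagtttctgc
G6pc2 second start, chr2:69219699-69219948, plus strand: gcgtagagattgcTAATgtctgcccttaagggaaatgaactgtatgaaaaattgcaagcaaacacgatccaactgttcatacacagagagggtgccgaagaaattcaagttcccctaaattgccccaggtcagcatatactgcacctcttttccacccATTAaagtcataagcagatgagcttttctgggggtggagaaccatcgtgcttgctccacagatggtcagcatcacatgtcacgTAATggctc
The Slc2a2 window held 1 TAAT core, 51 bases before the start, and the Slc2a1 window held 0. The window of the first G6pc2 start held 1, at 123 bases, and that of the second start held 3, at 237, 92 and 9 bases. Of the genes not shown, Pfkm, Pcx, Gpd2 and Me1 held TAAT in at least 1 window, and Glud1 and Hadh in 0. Me1, which did not fall, held 6 in 1 of its 2 windows. RefSeq lists 16 starts for the 9 genes, and 9 of these windows (56.2%) held TAAT, against 54.9% of 32851 promoter windows of the same length, so the core was about as frequent in the set as elsewhere. E-boxes (CANNTG, bound by factors such as Neurod1) were in 11 of the 16 windows (68.8%, against 66.2%). The Mafa motif TGCTGAC was in 1, the second G6pc2 start, with 2 matches (6.25%, against 3.81%). An NF-κB motif of 10 letters was in 1 of the 4 Pfkm windows, the last, and in 0 windows of the other genes (6.25%, against 7.25%). The Foxa2 motif TGTTTAC and an Hnf1 motif were in 0 of the 16 (against 3.17% and 0.00913%). Both strands were searched, the motifs were chosen with the expression values known, and a match is a description of letters only.

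Slc2a1 encodes GLUT1, the transporter that most cell types use for basal glucose uptake. The gene (10507594; chromosome 4, 119108745 to 119137330) read 8.21 to 8.32 in control islets, the tightest group of all 9 genes in control (mean 8.26 ± 0.06, SD, n = 5). It read 8.44, 7.98, 8.17 and 8.08 on Pdx-1+/- arrays 1 to 4 and 8.48, 8.21, 8.24, 8.45 and 8.87 on IKK2-CA arrays 1 to 5. The groups overlapped in all comparisons, and IKK2-CA array 5 was the highest of the 14. No difference passed: IKK2-CA stood at 0.19 against control (SE 0.12, 95% interval −0.06 to 0.44, adjusted p = 0.48) and at 0.28 against Pdx-1+/- islets (SE 0.12, 95% interval 0.02 to 0.55, adjusted p = 0.666). Without IKK2-CA array 5, the array with adipocyte transcripts, these were 0.09 and 0.18. Pdx-1+/- stood at −0.09 against control (SE 0.12, 95% interval −0.36 to 0.17, adjusted p = 0.999). The interval against control excludes a fall of the size seen in Slc2a2.

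G6pc2 encodes the islet glucose 6-phosphatase subunit, which hydrolyses glucose 6-phosphate in the endoplasmic reticulum and so opposes glucose phosphorylation. The gene (10472531; chromosome 2, 69211073 to 69227993) read 11.75, 11.40, 12.15, 11.78 and 11.80 on control arrays 1 to 5. It read 11.25, 11.05, 11.06 and 10.59 on Pdx-1+/- arrays 1 to 4 and 10.31, 10.79, 10.52, 11.26 and 10.21 on IKK2-CA arrays 1 to 5. As for Slc2a2, no array of the other groups reached the lowest control array, and IKK2-CA array 4 was the highest of its group. The means were 11.78 ± 0.26 (SD, n = 5), 10.99 ± 0.28 (SD, n = 4) and 10.62 ± 0.42 (SD, n = 5). G6pc2 fell by 1.16 in IKK2-CA against control (SE 0.19, adjusted p = 0.00828). It stood at −0.79 in Pdx-1+/- against control (SE 0.20, 95% interval −1.22 to −0.35, adjusted p = 0.308) and at −0.37 in IKK2-CA against Pdx-1+/- (SE 0.20, 95% interval −0.80 to 0.06, adjusted p = 0.805). Slc2a2 and G6pc2 were the 2 of the 9 genes whose arrays did not overlap between Pdx-1+/- and control, which 1.4% of all genes showed in that direction. Their falls in IKK2-CA against control passed with any 1 of the 10 arrays left out (highest adjusted p = 0.0279 and 0.0313) and without the 3 arrays high in adipocyte or intestinal transcripts (−1.55 and −0.96, adjusted p = 0.0183 for each).

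Pfkm encodes the muscle-type subunit of phosphofructokinase, which commits fructose 6-phosphate to glycolysis. The gene (10426557; chromosome 15, 98092589 to 98132447) read 7.68, 7.86, 8.17, 8.11 and 8.05 on control arrays 1 to 5. It read 7.83, 7.82, 7.78 and 7.69 on Pdx-1+/- arrays 1 to 4 and 7.42, 7.57, 7.55, 7.67 and 7.43 on IKK2-CA arrays 1 to 5. Its IKK2-CA arrays were below every array of the other groups, by a narrow margin, while Pdx-1+/- and control overlapped. It was the 1 of the 9 genes whose IKK2-CA and Pdx-1+/- arrays did not overlap, which 0.712% of all genes showed in that direction. Pfkm fell by 0.45 in IKK2-CA against control (SE 0.09, 95% interval −0.65 to −0.25, adjusted p = 0.0241), and stood at −0.25 against Pdx-1+/- (SE 0.10, adjusted p = 0.609). Pdx-1+/- stood at −0.19 against control (SE 0.10, adjusted p = 0.999). The call against control was lost without control array 3, 4 or 5 (−0.40, −0.41 and −0.43, adjusted p = 0.0816, 0.0738 and 0.0699) and without IKK2-CA array 1, 3 or 5 (−0.42, −0.45 and −0.42, adjusted p = 0.0544, 0.057 and 0.0544). It held without IKK2-CA array 5 and Pdx-1+/- array 4 together, and was lost when control array 3 was left out as well (−0.37, adjusted p = 0.12).

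**Figure D2:**
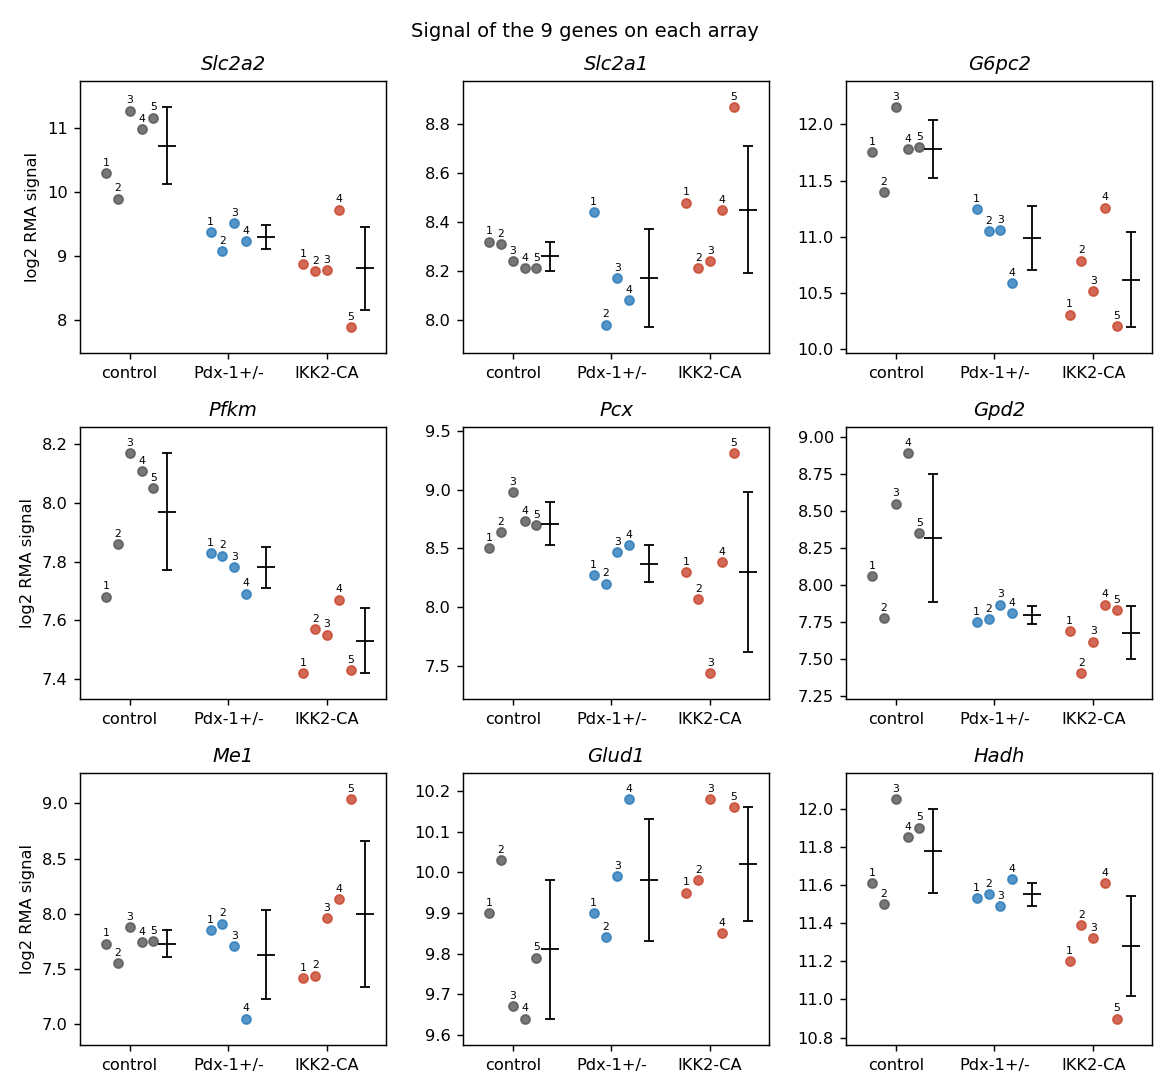
Log2 RMA signal (vertical axes, which differ between panels) of the 9 genes on each array, numbered by replicate, for control, Pdx-1+/- and IKK2-CA islets; the bar beside each group is the mean ± SD. Control arrays of Slc2a2 and G6pc2 were above all others, and IKK2-CA array 5 had the highest Slc2a1, Pcx and Me1 and the lowest Slc2a2, G6pc2 and Hadh of the 14.

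Gpd2 and Hadh act in mitochondria, and their differences in IKK2-CA against control islets lay just outside the threshold. Gpd2 is the mitochondrial glycerol phosphate dehydrogenase, which passes electrons of cytosolic NADH to the respiratory chain. The gene (10472162; chromosome 2, 57237678 to 57370719) read 8.06, 7.78, 8.55, 8.89 and 8.35 on control arrays 1 to 5, 7.75 to 7.87 on the 4 Pdx-1+/- arrays, and 7.69, 7.41, 7.62, 7.87 and 7.83 on IKK2-CA arrays 1 to 5. Control array 2 lay among the other groups, and the remaining 4 control arrays lay above all of them. Gpd2 stood at −0.64 in IKK2-CA against control (SE 0.16, 95% interval −0.99 to −0.29, adjusted p = 0.0577) and at −0.53 in Pdx-1+/- against control (SE 0.17, adjusted p = 0.737). Without control array 2 the former was −0.78 and passed (adjusted p = 0.0102), as it did without IKK2-CA array 4 (−0.69, adjusted p = 0.0397). These were the only 2 of 10 single omissions that passed, and the adjusted p reached 0.169 in the others. IKK2-CA and Pdx-1+/- islets differed by −0.12 (95% interval −0.49 to 0.25, adjusted p = 0.973).

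Hadh encodes the mitochondrial dehydrogenase of short-chain hydroxyacyl-CoA, which also binds and restrains glutamate dehydrogenase. The gene (10502205; chromosome 3, 131233419 to 131272101) read 11.61, 11.50, 12.05, 11.85 and 11.90 on control arrays 1 to 5. It read 11.49 to 11.63 on the Pdx-1+/- arrays and 11.20, 11.39, 11.32, 11.61 and 10.90 on IKK2-CA arrays 1 to 5. The means stepped down from 11.78 ± 0.22 (SD, n = 5) through 11.55 ± 0.06 (SD, n = 4) to 11.28 ± 0.26 (SD, n = 5), with overlap between all groups. It stood at −0.50 in IKK2-CA against control (SE 0.12, 95% interval −0.77 to −0.23, adjusted p = 0.0534), at −0.27 against Pdx-1+/- (SE 0.13, adjusted p = 0.749), and at −0.23 in Pdx-1+/- against control (SE 0.13, adjusted p = 0.999). Without control array 2 the first of these was −0.57 and passed (adjusted p = 0.0274), as it did without IKK2-CA array 4 (−0.58, adjusted p = 0.017). The difference did not pass under any other of the 10 single omissions, where the adjusted p reached 0.16.

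Glud1, glutamate dehydrogenase, turns glutamate into the citric acid cycle intermediate α-ketoglutarate. The gene (10414093; chromosome 14, 34310727 to 34345033) read 9.90, 10.03, 9.67, 9.64 and 9.79 on control arrays 1 to 5. It read 9.90, 9.84, 9.99 and 10.18 on Pdx-1+/- arrays 1 to 4 and 9.95, 9.98, 10.18, 9.85 and 10.16 on IKK2-CA arrays 1 to 5. Its differences from control were positive and did not pass, at 0.22 in IKK2-CA (SE 0.10, 95% interval 0.01 to 0.43, adjusted p = 0.295) and 0.17 in Pdx-1+/- islets (SE 0.10, adjusted p = 0.999). IKK2-CA and Pdx-1+/- differed by 0.05 (95% interval −0.18 to 0.27, adjusted p = 0.988). Control arrays 1 and 2, the lowest controls for Slc2a2, were the highest controls for Glud1, and IKK2-CA array 4, the highest of its group for Slc2a2, was the lowest for Glud1. The Pdx-1+/- arrays did not run this way, since array 2 was the lowest of its group for both genes.

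Pcx and Me1 varied more among the IKK2-CA arrays than between the groups. Pcx is pyruvate carboxylase, which makes oxaloacetate from pyruvate, and Me1 is cytosolic malic enzyme, which regains pyruvate from malate with NADPH. Pcx (10460400; chromosome 19, 4510472 to 4621752) read 8.50, 8.64, 8.98, 8.73 and 8.70 on control arrays 1 to 5 and 8.27, 8.20, 8.47 and 8.53 on Pdx-1+/- arrays 1 to 4. It read 8.30, 8.07, 7.44 and 8.38 on IKK2-CA arrays 1 to 4, all below every control array, and 9.31 on array 5, above all of them. The difference from control was −0.41 (SE 0.24, 95% interval −0.93 to 0.11, adjusted p = 0.464) with array 5 and −0.67 without it (adjusted p = 0.068). Without IKK2-CA array 3 it was −0.20. Pdx-1+/- islets stood at −0.34 against control (SE 0.26, adjusted p = 0.999), and IKK2-CA at −0.07 against Pdx-1+/- islets (95% interval −0.62 to 0.48, adjusted p = 0.992). Without IKK2-CA array 5 the latter was −0.32.

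Me1 (10595480; chromosome 9, 86581363 to 86695914) read 7.55 to 7.88 in control islets. It read 7.85, 7.91, 7.71 and 7.05 on Pdx-1+/- arrays 1 to 4 and 7.42, 7.44, 7.96, 8.13 and 9.04 on IKK2-CA arrays 1 to 5. IKK2-CA array 5 was thus the highest and Pdx-1+/- array 4 the lowest of the 14. IKK2-CA stood at 0.27 against control (SE 0.26, 95% interval −0.28 to 0.82, adjusted p = 0.708) and at 0.01 without array 5. Against Pdx-1+/- islets it stood at 0.37 (SE 0.27, 95% interval −0.21 to 0.95, adjusted p = 0.891), and at 0.11 without array 5. Pdx-1+/- stood at −0.10 against control (SE 0.27, adjusted p = 0.999), and at 0.09 without Pdx-1+/- array 4. The second Me1 cluster (10405753) gave 0.26 (SE 0.29) in IKK2-CA against control, with 8.69 on IKK2-CA array 5 against 6.54 to 7.75 elsewhere. Adipocytes make both enzymes in quantity for lipid synthesis. The adipocyte markers Adipoq and Plin1 read 10.60 and 9.34 on IKK2-CA array 5, against at most 7.38 and 6.80 on the other arrays. The part of adipocyte RNA in the Pcx and Me1 values of that array was not tested.

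Among the control arrays, those low for β-cell markers, arrays 1 and 2, were low for Slc2a2, Pfkm, Hadh and Gpd2 too, and the extremes of the IKK2-CA group ran the same way for Slc2a2, G6pc2 and Hadh. On control arrays 1 and 2, Slc2a2 deviated from the control mean by −0.43 and −0.83, G6pc2 by −0.03 and −0.37, Pfkm by −0.30 and −0.11, Hadh by −0.17 and −0.28, Gpd2 by −0.26 and −0.55, and the β-cell markers by −0.19 and −0.49. On IKK2-CA array 4, Slc2a2 deviated from the group mean by 0.93, G6pc2 by 0.64, Hadh by 0.33 and the β-cell markers by 0.61. On IKK2-CA array 5 those deviations were −0.91, −0.41, −0.38 and −0.43. Other arrays did not follow: on IKK2-CA array 3 the β-cell markers deviated by −0.43 and Slc2a2 by −0.03, and on Pdx-1+/- array 4 they deviated by −0.41 and Slc2a2 by −0.06. After the group means were removed, the correlation with the β-cell marker mean over the 14 arrays was 0.86 for G6pc2, 0.81 for Slc2a2, 0.73 for Hadh, 0.69 for Pfkm and 0.49 for Gpd2. It was −0.93 for Glud1. For Slc2a1, Me1 and Pcx it was −0.21, −0.02 and 0.00, and without IKK2-CA array 5 it was 0.14, 0.49 and 0.57. These correlations describe 14 arrays that share their islets and RNA between genes, and the share of β-cells in them was not measured.

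**Figure D3:**
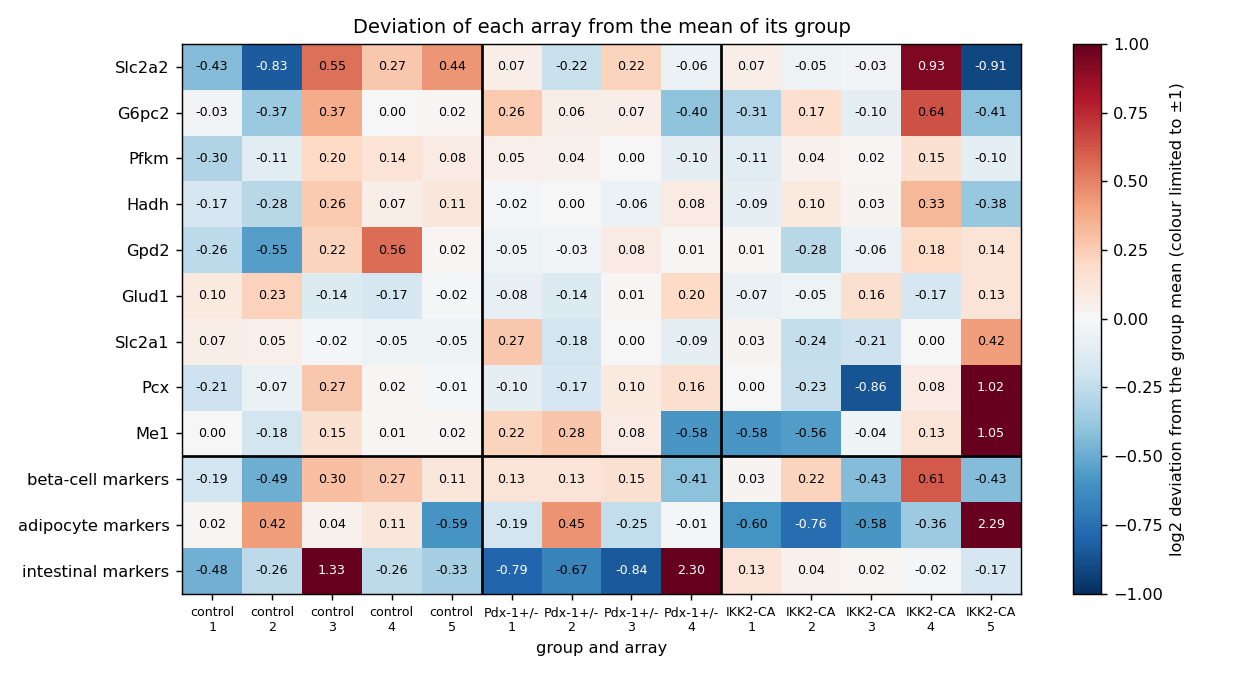
Log2 deviation of each array (columns) from the mean of its own group for the 9 genes and for the mean of 14 β-cell, 7 adipocyte and 9 intestinal markers (rows); red is above the group mean, blue below. Slc2a2, G6pc2, Pfkm and Hadh were high on IKK2-CA array 4 together with the β-cell markers, and Pcx and Me1 were 1.02 and 1.05 above the mean on IKK2-CA array 5, where the adipocyte markers were 2.29 above it.

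Over the 14 arrays, the gene most like Slc2a2 among all others was Pdx1 (Pearson correlation 0.983), followed by Cln6 (0.967), a lysosome-related membrane protein of the endoplasmic reticulum, and Glp1r (0.959), the receptor of the incretin GLP-1. Pdx1 was also the gene most like G6pc2 (0.972), before Car10 (0.970) and Lgi1 (0.965). Pfkm was most like Neu1 (0.974), a lysosomal sialidase, Dlg5 (0.948) and Trp53inp2 (0.925). Pdx1 itself read 7.67 to 8.62 in control, 6.85 to 7.32 in Pdx-1+/- and 5.97 to 7.44 in IKK2-CA islets, and its highest IKK2-CA array was array 4, as for Slc2a2. With the group means removed, the correlation of Slc2a2 was 0.93 with Pdx1, 0.93 with Cln6 and 0.92 with Glp1r. That of G6pc2 was 0.89 with Pdx1, 0.89 with Car10 and 0.94 with Lgi1, so Pdx1 was not the closest of these to G6pc2 within groups. These values were picked as the highest of all genes and describe the 14 arrays, which share group, islets and RNA.

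Other genes of glucose entry and glycolysis changed for a few members in IKK2-CA against control islets. Of 18 further genes of glucose transport and glucose 6-phosphate use, 2 fell and 1 rose, where 1.56% of all genes fell and 0.682% rose (median difference 0.02, against −0.012 over all genes). Slc37a4, which carries glucose 6-phosphate into the endoplasmic reticulum for hydrolysis, fell by 0.88 (SE 0.10, adjusted p = 0.000729), from 8.79 ± 0.18 (SD, n = 5) to 7.91 ± 0.17 (SD, n = 5). Pdx-1+/- islets read 8.19 ± 0.13 (SD, n = 4), between them. Leaving out any 1 of the 10 arrays kept this call (adjusted p at most 0.00374). Slc2a5, a fructose transporter, fell by 0.96 (SE 0.22, adjusted p = 0.0364), and Taldo1, the transaldolase of the pentose phosphate path, rose by 0.44 (SE 0.11, adjusted p = 0.0488). The Slc2a5 call was lost without any 1 of control arrays 1, 3, 4 and 5 and IKK2-CA arrays 1, 3 and 5, where it lay between −1.01 and −0.83. The Taldo1 call was lost without any 1 of the 5 control arrays or of IKK2-CA arrays 1, 3 and 5, where it lay between 0.37 and 0.47. G6pc3, the glucose 6-phosphatase found in most tissues, stood at 0.07 (SE 0.14, adjusted p = 0.878).

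Of 17 further glycolytic genes 2 fell and 0 rose, against the same shares of all genes (median −0.10). Pkm, which encodes the pyruvate kinase of most tissues, fell by 0.44 (SE 0.08, adjusted p = 0.0155), a call kept when any 1 of the 10 arrays was omitted (adjusted p at most 0.0455). Pfkfb2, whose product sets the level of the phosphofructokinase activator fructose 2,6-bisphosphate, fell by 0.96 (SE 0.19, adjusted p = 0.0196). Its call was lost without control array 3, 4 or 5 (−0.88, −0.88 and −0.94) or IKK2-CA array 3 (−0.85). Pklr, the liver-type pyruvate kinase, stood at 0.06 (SE 0.25, adjusted p = 0.95). With all 3 arrays high in adipocyte or intestinal transcripts left out, Slc37a4 (−0.83, adjusted p = 0.00308) and Pkm (−0.47, adjusted p = 0.0486) still passed, while Slc2a5 (−0.74, adjusted p = 0.148), Pfkfb2 (−0.81, adjusted p = 0.109) and Taldo1 (0.37, adjusted p = 0.189) did not.

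Downstream of pyruvate, 0 genes of the lists passed in any comparison. In IKK2-CA against control, 53.6% of all genes were negative. There the 29 genes of pyruvate entry and the citric acid cycle had a median of 0.05, with 17 positive. Cs, citrate synthase, stood at 0.24 (SE 0.08, adjusted p = 0.165), and Pdk2, a kinase that inhibits pyruvate dehydrogenase, at 0.28 (SE 0.19, adjusted p = 0.55). The 22 genes of redox shuttles, citrate export and glutamine use had a median of 0.02, with 11 positive. Among them Gpd1, the cytosolic partner of Gpd2, stood at −0.06 (SE 0.11, adjusted p = 0.872), Mdh1, cytosolic malate dehydrogenase, at 0.11 (SE 0.11, adjusted p = 0.726), and Slc25a12, an aspartate-glutamate carrier, at −0.20 (SE 0.10, adjusted p = 0.365). Acly, which makes cytosolic acetyl-CoA from citrate, stood at −0.61 (SE 0.22, adjusted p = 0.177).

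Of all genes, 53.6% were negative in IKK2-CA against control. Of the 20 genes of fatty acid oxidation other than Hadh, 18 were positive (median 0.20, range −0.14 to 0.38), on the other side of 0 from Hadh, though none passed. Without the 3 arrays high in adipocyte or intestinal transcripts 16 were positive (median 0.15). In Pdx-1+/- against control islets, with all arrays, 16 were positive too (median 0.15), where 51.8% of all genes were negative. Acadm, an acyl-CoA dehydrogenase, stood at 0.26 (SE 0.12, adjusted p = 0.331) and Cpt1a, which starts the import of fatty acids into mitochondria, at 0.02 (SE 0.09, adjusted p = 0.955). The 10 metabolic genes that are kept low in β-cells had a median of 0.14 with 8 positive in IKK2-CA against control, and none passed. Without the same 3 arrays the median was 0.07 with 6 positive. Ldha, lactate dehydrogenase A, stood at 0.33 (SE 0.15, adjusted p = 0.314), Slc16a1, a lactate transporter, at −0.27 (SE 0.46, adjusted p = 0.864), and Hk1, a high-affinity hexokinase, at 0.13 (SE 0.07, adjusted p = 0.407). Their control means were 9.75 ± 0.25, 9.12 ± 0.51 and 11.88 ± 0.10 (SD, n = 5 each). Whole islets were measured, so the cells that these transcripts came from cannot be told. For the 14 β-cell markers the median was −1.16, 8 fell and all 14 were negative, where 1.56% of all genes fell. Pdx1, the gene that the driver allele affects, is among the 8, and the list was chosen with earlier results of these data known. Without the 3 arrays high in adipocyte or intestinal transcripts, 3 fell and the median was −0.95, while the calls over all genes went from 448 to 186. The part of β-cell number in the falls of Slc2a2, G6pc2 and Pfkm was not tested.

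**Figure D4:**
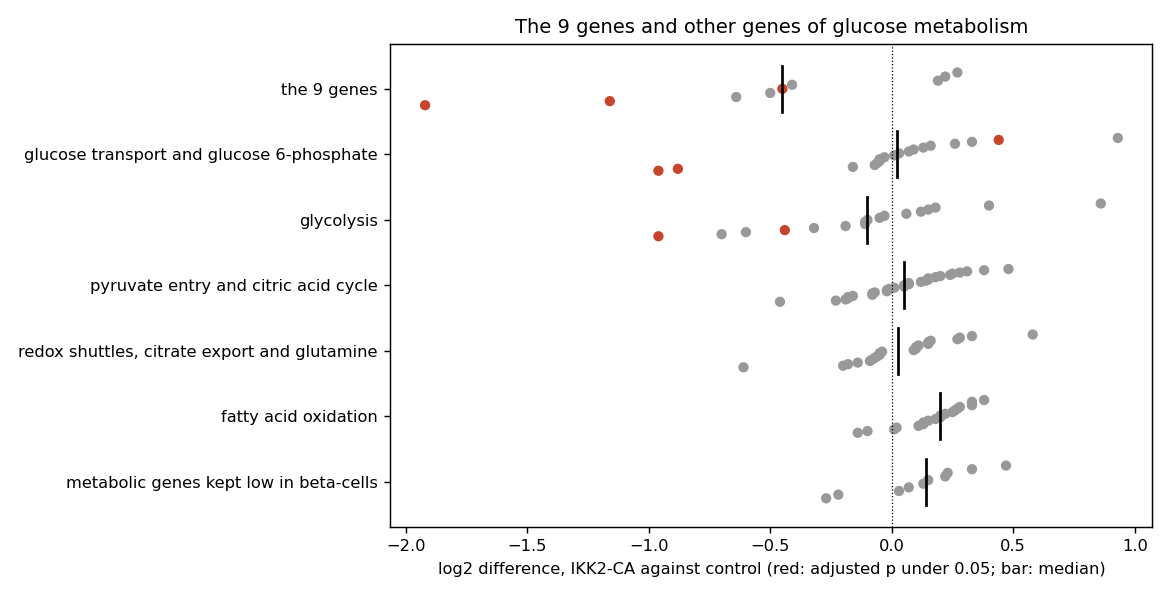
Log2 difference of IKK2-CA against control islets (horizontal axis) for the 9 genes and for the measured genes of 6 lists of glucose and fatty acid metabolism; each point is a gene, red marks an adjusted p under 0.05 and the black bar is the median. The medians were −0.45 for the 9 genes and −0.10 to 0.20 for the 6 lists.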

How the data were processed

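The authors hybridised labelled total RNA of isolated islets to Affymetrix Mouse Gene 1.0 ST arrays and summarised probes by RMA (robust multichip average); the submitters' processing notes name Affymetrix Expression Console, with no version. The deposited values carry no stated log base and were read as log2 signals because of their range and similar array medians. Of 35556 clusters, 21789 name 1 gene in the array's gene table, 1621 name several and 12146 are not listed. For the 999 genes with several clusters the brightest on average was used, which left 19938 genes. No filter or further normalization was applied. Array medians over these genes were 6.45 to 6.55, and the number of arrays limits the precision.

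Genes were tested with limma 3.58.1 (lmFit, eBayes) in R 4.3.3, as 1 fit of 3 group means over 14 arrays (residual degrees of freedom 11, prior 3.46), adjusted by Benjamini and Hochberg over all genes. The scripts were tested on simulated data. Groups come from the sample titles. The 9 genes and the gene lists were chosen with earlier results of these data known. Named from the lists were 17 genes set at the outset, where measured, and those past the threshold. The genes most like a member are the 3 with the highest correlation, for each member past the threshold. Promoter letters and gene positions are RefSeq's (GRCm38.p6), and all 9 genes matched. Alternatives were median centring, quantile normalization, trend and robust eBayes, the 2 compared groups alone, leaving out the lowest 30% of genes, every cluster, a gene's clusters averaged, weights per array, a block for the replicate number, and leaving out arrays. The fit without 3 arrays was added after seeing the data.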

Additional observations from a re-analysis of the deposited data

Results flagged for a closer look

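Of 63 sets of arrays examined with Dixon's test at its 95% level (9 genes and 12 marker lists in 3 groups), 5 held an array far from its group, and 0 of the 27 sets of the 9 genes did; chance alone gives some such sets at that level. In log2 units relative to the average over all 14 arrays, the adipocyte markers on IKK2-CA array 5 read 2.54 against −0.50 to −0.10 on the others of the group. The intestinal markers read 2.78 on Pdx-1+/- array 4, against −0.36 to −0.20, and 1.31 on control array 3, against −0.49 to −0.27. The β-cell markers on Pdx-1+/- array 4 read −0.51, against 0.03 to 0.05, and the endothelial markers on control array 4 read 0.35, against −0.26 to −0.10. Among the 9 genes, Pdx-1+/- array 4 was the lowest of its group for G6pc2, Pfkm and Me1.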

How the results depend on the processing

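Slc2a2 and G6pc2 kept their call in IKK2-CA against control islets under the 11 alternatives and with each array left out in turn. The count of the 9 genes called there was 3, and 5 with the lowest 30% of genes left out or with array weights, where Gpd2 and Hadh joined, while calls over all genes were 475 of 13956 and 1431 of 19938, against 448 of 19938. It was 4 with quantile normalization, where Hadh joined (497 of all genes). It was 2 with only the 2 groups compared (Pfkm not, adjusted p = 0.0604; 241 of all genes) and 2 without the 3 arrays (Pfkm not; 186). It ranged from 2 to 5 with 1 array left out. In Pdx-1+/- against control it was 0, and 1 (Slc2a2, −1.60, adjusted p = 0.00912) with array weights, and it ranged from 0 to 1 with 1 array left out. In IKK2-CA against Pdx-1+/- it was 0 throughout. Signs changed only for differences that did not pass. Me1 in IKK2-CA against control was −0.04 with array weights. Against Pdx-1+/- it was −0.06 with array weights and −0.09 without the 2 or the 3 arrays high in adipocyte or intestinal transcripts. Me1 in Pdx-1+/- against control was 0.02 with array weights, 0.03 with the replicate block, and 0.09 and 0.13 without the 2 and the 3 arrays, and it ranged from −0.19 to 0.09 with 1 array left out. In IKK2-CA against Pdx-1+/-, Pcx ranged from −0.32 to 0.15 and Glud1 from 0.00 to 0.11. The cause was not tested. Arrays with the same replicate number were not treated as pairs, since the labels state no pairing. Correlations of their deviations were −0.39 to 0.36, with the own number best in 3 of 26 checks. With so few arrays a group, this cannot exclude a shared batch or litter. With the replicate number as a block, 2 of the 9 genes were called in IKK2-CA against control (Pfkm not, adjusted p = 0.0683), and 197 of all genes in place of 448.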
